A study of Mus musculus with 4 samples.

Results

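Alveolar type 2 cells are the surfactant-secreting cells of the lung alveolus, and they were picked here from droplet single-cell libraries of whole mouse lung by counts of marker transcripts. A barcode was a member if it held at least 50 unique molecular identifiers (UMIs, counted RNA molecules) of surfactant protein C (Sftpc) and at least 1 UMI of 2 or more of Lamp3, Slc34a2 and Etv5. It also had to hold at most 1 UMI each of Ptprc (the leukocyte antigen CD45) and Cdh5 (an endothelial cadherin), under 3 UMIs summed over 8 lymphocyte genes, and at most 5 UMIs of Ager, a gene that marks alveolar type 1 cells. These limits left 109 members of 68675 barcodes that passed the filters on genes, UMIs and mitochondrial share. By library the members numbered 28 (BPTES 1), 27 (BPTES 2), 14 (DMSO 1) and 40 (DMSO 2). Since these counts chose the members, the levels of the genes in the rule are described here and not tested.

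All 4 libraries came from lungs of male C57BL/6 mice that were 19 months old when dosing began. For 1 month the mice received BPTES, a small-molecule glutaminase inhibitor, or DMSO, the vehicle alone, which is the control group. Lungs were digested with Liberase for 1 hour, stained for CD45 and sorted, and each library was loaded with 20000 CD45- and 9000 CD45+ cells, so the share of any type is a share of that mixture and not of the lung. The labels do not say whether libraries of a group came from separate mice, so p-values measure the spread between libraries, which may be technical. The libraries held 16440 to 21986 barcodes and 260346570 to 342107092 UMIs, and 15349 to 20549 barcodes each passed the filters. Any 2 libraries shared 65 to 104 barcode sequences among those kept. No shared sequence was a member in both libraries, and 1 was in the wider set of both, defined below.

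As background, type 2 cells make the surfactant proteins A, B, C and D and the phospholipids of surfactant. The phospholipids are stored in lamellar bodies, which fill by way of the lipid transporter ABCA3. They are also the progenitors of the flat type 1 cells that line the gas-exchange surface, and pass through a keratin 8-high intermediate on the way. They secrete lysozyme and chemokines, display MHC class II and are a source of the nuclear alarmin interleukin 33. Glutaminase turns glutamine into glutamate, a precursor of glutathione and of the TCA-cycle intermediate 2-oxoglutarate.

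The Ager limit decided which type 2 cells were counted. Before it, 1061 barcodes met every other limit (364 and 373 with BPTES, 93 and 231 with DMSO), and it removed 952 of them, or 89.7%. The counts showed no gap at the limit, with 58 barcodes at 3 to 5 Ager UMIs, 48 at 6 to 8, 221 at 9 to 19 and 683 at 20 or more. Ager is read in type 2 cells at a low level: its median over the 1061 barcodes was 27 UMIs, or 602 CPM (UMIs scaled to a fixed library total), against library medians of 9503.5 to 14250 CPM in the 117 barcodes gated as alveolar type 1 and 0 UMIs in gated endothelial cells. The members were also shallower. Their median depth in BPTES 1, BPTES 2, DMSO 1 and DMSO 2 was 14101, 20501, 25726 and 19518.5 UMIs, while that of the 1061 barcodes was 45415, 46801, 44846 and 42588. The Sftpc limit lay far below most of the 1061 barcodes, of which 1028 held 500 or more Sftpc UMIs, but nearer to the members. Of the 109 members 30 held fewer than 500, and all 7 barcodes between 50 and 99 were members. Just outside the limit, 17 barcodes held 20 to 49.

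**Figure D1:**
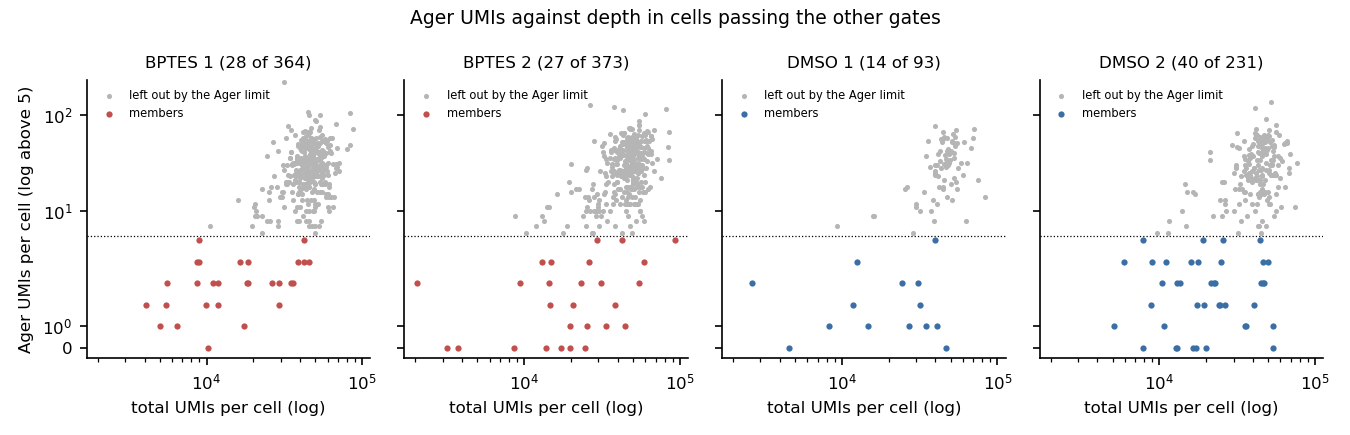
Each point is 1 barcode that met every limit but that on Ager, with total UMIs on a log x axis and Ager UMIs on a y axis that is linear up to 5 and log above, in 4 panels by library. The coloured members lie under the dotted limit and mostly to the left, at median depths of 14101 to 25726 UMIs, and the grey barcodes that the limit left out form the main cloud at median depths of 43890 to 47582.5 UMIs.

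For that reason the shares, the counts of called genes and the gene lists are given for the 109 members and for the 1061 barcodes without the Ager limit. The latter, here called the wider set, hold the members and were added after the data were seen. Single genes and the cell-to-cell spread are given mostly for the wider set. As a whole, both sets fit the label by markers that the rule did not use. Single members could still hold little Sftpc. In BPTES 1 their median share of UMIs, 5.27%, lay near the 5th percentile of the wider set, 5.20%. Sftpa1 and Sftpb, which encode surfactant proteins A and B, were detected in 100% of barcodes in both sets and in every library. Summed over 8 such markers, the level was 33185, 29418, 36632 and 37832 CPM in the members of BPTES 1, BPTES 2, DMSO 1 and DMSO 2, and 46869, 44730, 44107 and 46272 CPM in the wider set. Type 1 markers were uneven. The 7 of them summed to 1069 to 1140 CPM in the wider set and to 349 to 463 CPM in the members, with the water channel Aqp5 at 316 to 373 CPM and 197 to 263 CPM. In the wider set most of the rest was Ager, at 657 to 701 CPM. There Rtkn2 was at 3.92 to 4.67 CPM, against 2608 to 4566 CPM in gated type 1 cells, and Hopx at 23.2 to 35.4 CPM, against 4691 to 7299 CPM.

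RNA of other cell types was present in the members at unequal levels. The 5 fibroblast markers summed to 1311 and 1314 CPM in the BPTES members and to 39.3 and 132 CPM in the DMSO members, and all 5 were higher in both BPTES libraries than in either DMSO library. Over the wider set the same sum was 150, 135, 77.9 and 180 CPM, so the groups overlapped. Ciliated markers summed to 682 CPM in the members of BPTES 2 and to 46.7 to 90.5 CPM in the other libraries. Basal, mesothelial and erythroid markers were at 0 in all members. Endothelial markers, among them Cdh5, which the rule capped, lay between 18.9 and 24.2 CPM and did not separate the groups. Barcodes with the highest scores from the doublet caller Scrublet were marked, in a number preset from the count of kept barcodes. Of kept barcodes 1048, 1100, 942 and 1689 were marked in BPTES 1, BPTES 2, DMSO 1 and DMSO 2. These included 6, 9, 1 and 12 of the members and 32, 30, 9 and 27 of the wider set. Type 2 RNA also lay outside type 2 cells: the median other barcode held 4, 3, 1 and 2 Sftpc UMIs, in the same order of libraries.

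**Figure D2:**
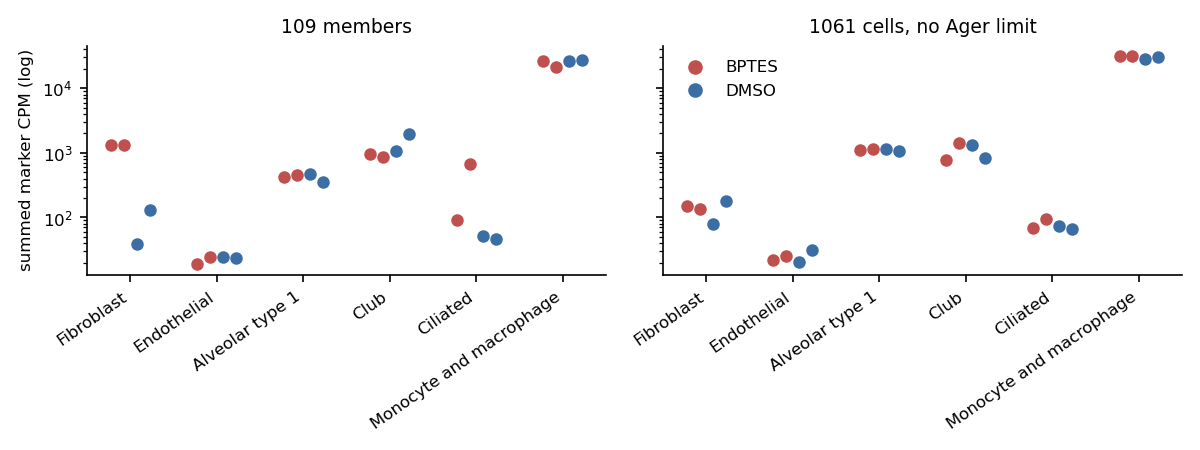
Points give the summed CPM of marker genes of 6 other cell classes on a log axis, 1 point per library in each class, for the members (left) and for the wider set (right). The fibroblast sums of the members are 1311 and 1314 CPM in the BPTES libraries against 39.3 and 132 CPM with DMSO, while in the wider set the groups overlap. The high macrophage sums come with Lyz2, which type 2 cells express themselves.

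In every library of the wider set, Sftpc alone made up a median of 16.5% to 17.1% of a cell's UMIs. In the members the medians were lower and less even, at 5.27%, 11.4%, 12.1% and 9.81% in BPTES 1, BPTES 2, DMSO 1 and DMSO 2. Lyz2, a lysozyme, followed among the genes examined in the wider set, at 31832, 31607, 28109 and 29841 CPM in BPTES 1, BPTES 2, DMSO 1 and DMSO 2. Sftpa1 stood at 22761, 20940, 20742 and 21982 CPM and Sftpb at 11229, 11199, 11265 and 10832 CPM, and the groups overlapped for both. Cxcl15, a chemokine of lung epithelium, was at 8387, 8611, 6718 and 8619 CPM. Scd1, the desaturase that makes monounsaturated fatty acids, was at 3616, 3456, 3204 and 3515 CPM. These CPM are scaled by trimmed-mean (TMM) factors and compare libraries, and the 3' counts are not corrected for length because each molecule is read at its end. The gated class with the next highest Sftpa1, Sftpb and Sftpd was club cells, secretory cells of the airway, with 1564, 465 and 158 CPM.

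Cell-to-cell spread differed widely between these genes. After each cell was thinned to 10000 UMIs, which kept 354, 367, 89 and 224 cells of the wider set and left out 10, 6, 4 and 7 shallower cells, the coefficient of variation of Sftpc over cells was 0.250, 0.266, 0.259 and 0.296. Sftpb was as even, at 0.267 to 0.310, and in the members, with 18, 22, 11 and 34 thinned cells, both were less even, at 0.790, 0.619, 0.522 and 0.682 for Sftpc and 0.515, 0.453, 0.321 and 0.487 for Sftpb. In the wider set Abca3 and H2-Aa, an MHC class II chain, lay between 0.504 and 0.663. Il33 varied more, at 0.946, 1.02, 1.31 and 1.06. Its mean was 5.26, 5.02, 3.34 and 2.88 UMIs per thinned cell, against 1579.5 to 1646.4 for Sftpc. Counting error adds more to this coefficient at low means, and it was not removed. Lyz1, another lysozyme, was carried by few cells, with a UMI in 21.2%, 18.3%, 19.1% and 22.8% of thinned cells (49.2%, 41.0%, 37.6% and 45.5% unthinned) and a coefficient of variation of 3.69 to 4.64. The same measure in thinned endothelial cells, which should lack the gene, was 0.6% to 1.7% for Lyz1, and thinned cells hold equal depth. Scgb1a1, the main club-cell secretoglobin, reached 67.4% to 74.6% of thinned type 2 cells, but also 15.8% to 46.0% of thinned endothelial cells.

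The type 2 share of the sorted mixture depended on the Ager limit. The members were 0.173% and 0.163% of kept barcodes with BPTES and 0.0912% and 0.195% with DMSO, so the groups overlapped (two-sided exact permutation test, p = 1). Exact 95% intervals, which cover counting error only, ran from 0.107% to 0.250% with BPTES and from 0.0499% to 0.265% with DMSO. Without the Ager limit the shares were 2.25% and 2.25% with BPTES (exact intervals 2.03% to 2.49% and 2.03% to 2.49%) and 0.606% and 1.12% with DMSO (0.489% to 0.742% and 0.985% to 1.28%). The mean was 2.25% ± 0.000511 (SD, n = 2) against 0.865% ± 0.366 (SD, n = 2), a ratio of 2.60. Both BPTES libraries were higher, and the two-sided exact permutation p was 0.33, the smallest that 2 against 2 libraries can give. Among barcodes with no Ptprc UMI the wider set made up 3.15% and 3.21% against 0.850% and 1.59%.

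Other epithelial shares were also higher with BPTES in the mean. Gated type 1 cells were 0.253% and 0.187% of kept barcodes against 0.0782% and 0.161%, and club cells 0.124% and 0.157% against 0.0847% and 0.0827%, with no overlap in either (exact permutation p = 0.33 each). Ciliated cells were 0.636% and 1.09% against 0.534% and 0.652%, and the groups overlapped. The B cell share was 4.33% and 3.68% against 8.50% and 7.74%. Shares of a mixture move together, and the part of these changes in the type 2 share was not tested.

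**Figure D3:**
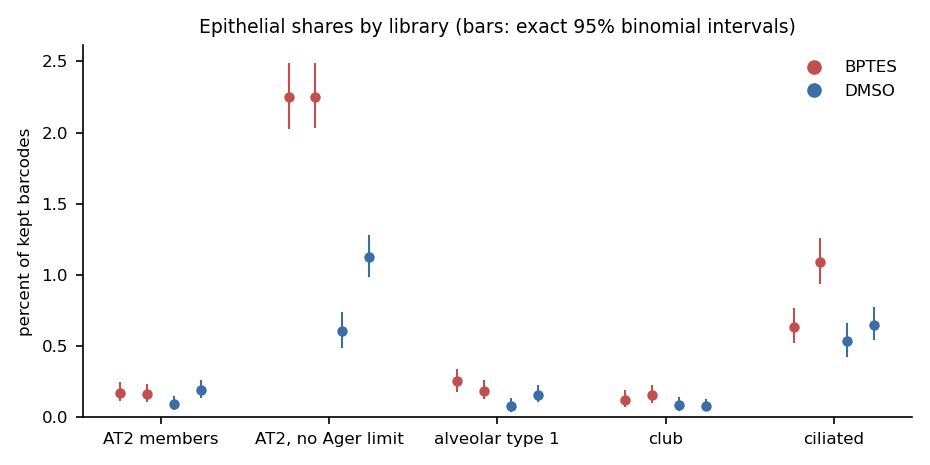
Points give each library's share of kept barcodes in percent for the members, the wider set and 3 other gated epithelial classes, with exact 95% binomial intervals as bars. In the wider set both BPTES libraries sit at 2.25%, above the DMSO libraries at 0.606% and 1.12%, while the member shares overlap.

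Between BPTES and DMSO members, 2 of 7203 tested genes were called (adjusted p under 0.05 in edgeR's quasi-likelihood test), which is 0.0278% of them, and both were higher. Dcn, the matrix proteoglycan decorin, was at 622 and 869 CPM against 14.7 and 10.9 CPM, a log2 fold change of 5.94 ± 0.32 (SE, n = 2 against 2, edgeR adjusted p = 3.65e-05). Gsn, the actin-severing protein gelsolin, was at 1347 and 2054 CPM against 262 and 307 CPM, a log2 fold change of 2.58 ± 0.25 (SE, edgeR adjusted p = 0.00483). Both are highest in fibroblasts among the gated classes. Dcn is itself among the 5 fibroblast markers summed above, so its move with that sum is partly built in. Gsn is not in the sum and moves with it. No gene was called by edgeR once the 4, 7, 1 and 5 members with 5 or more UMIs of other cells' markers were left out (331 had an unadjusted p under 0.05), and the log2 difference of Gsn was then -0.37. That filter counts Dcn itself and other fibroblast genes, so it is no test of these calls. With Scrublet's doublets left out, 0 of 5335 tested genes were called by edgeR, and the log2 difference of Gsn was -1.04. In the main fit an unadjusted p under 0.05 was reached by 423 genes, or 5.87% of those tested, 276 of them higher (3.83%) and 147 lower (2.04%). The calls numbered 126 without BPTES 1, 15 without BPTES 2, 103 without DMSO 1 and 71 without DMSO 2, and 16 by DESeq2. The members' summed UMIs per library ran from 330436 to 962801.

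Below the threshold, 8 further genes on the higher side were named by their unadjusted p. Of these Sparcl1, Serping1, Dpt, Timp2 and Lgals1 had their highest gated level in fibroblasts, with log2 differences of 1.88, 1.91, 4.86, 2.19 and 2.46 and adjusted p of 0.0518 to 0.0528 in edgeR. Areg, the growth factor amphiregulin, was highest in ciliated cells and stood at 368 and 254 CPM against 73.6 and 88.5 CPM (edgeR adjusted p = 0.0528). Sparc and Igfbp7 were highest in gated type 1 cells, with log2 differences of 1.45 and 1.66 (edgeR adjusted p = 0.0601 and 0.0748). On the lower side stood Rasl11a, a small GTPase-like protein, at 24.2 and 31.1 CPM against 112 and 110 CPM (edgeR adjusted p = 0.0748). Batf, an AP-1 family transcription factor, was at 9.29 and 1.41 CPM against 29.5 and 79.7 CPM, from 5 and 1 UMIs against 10 and 73 (edgeR adjusted p = 0.301). Genes were named by their unadjusted p only if their groups did not overlap and their mean was at least 10 CPM, so the lack of overlap is no result. Over all tested genes the groups did not overlap for 17.6% on the higher and 18.0% on the lower side.

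Surfactant genes of the members did not pass the test. Sftpa1 was at 15417 and 13745 CPM against 17666 and 19316 CPM, lower in both BPTES libraries, with a log2 difference of -0.33 ± 0.17 (SE, edgeR adjusted p = 0.888). Sftpb differed by -0.08 ± 0.17 and Sftpd by 0.01 ± 0.17 on the log2 scale. Krt8, the keratin of the intermediate state, was at 108 and 201 CPM against 82.5 and 80.8 CPM (log2 0.94 ± 0.32, edgeR adjusted p = 0.657). Gdf15, a stress cytokine, was at 55.7 and 52.3 CPM against 32.4 and 6.55 CPM (log2 1.80 ± 0.61, edgeR adjusted p = 0.657). Cdkn1a, which encodes the cell-cycle inhibitor p21, overlapped between groups at 279 and 100 CPM against 115 and 52.4 CPM.

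The wider set's summed UMIs per library ran from 3979307 to 16578732, and there 72 of 12992 tested genes were called, or 0.554%. Of these 14 were higher with BPTES (0.108% of tested genes) and 58 lower (0.446%), and none of the 72 overlapped between groups, as was the case for 22.6% of tested genes on the higher and 22.4% on the lower side. A further measure of the background is that 1563 genes, or 12%, had an unadjusted p under 0.05. The number of calls changed with the cells and libraries used. Without the 2 barcodes of highest UMI count in each library 7 genes were called, 6 of them among the 72. In that fit 1376 genes had an unadjusted edgeR p under 0.05. With no UMI of Ptprc, Cdh5 or the lymphocyte genes allowed, 147, 138, 27 and 76 barcodes were kept. There 2 genes were called, 1 of them among the 72. The count was 166 without BPTES 1, 39 without BPTES 2, 150 without DMSO 1 and 117 without DMSO 2. With Scrublet's doublets left out 65 genes were called, 44 of them among the 72, and DESeq2 called 82, of which 32 were higher and 50 lower and 46 were among the 72. Of the 14 higher genes 8 were also tested in the members, and 7 had the same sign there. Of the 58 lower genes 45 were tested and 36 had the same sign, but the members are part of the wider set.

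Interleukin 33 was higher with BPTES. In the wider set Il33 stood at 532 and 524 CPM with BPTES and at 328 and 310 CPM with DMSO. Both BPTES libraries were higher, with a log2 fold change of 0.73 ± 0.08 (SE, edgeR adjusted p = 0.00687). It kept its call under 15 of 16 alternatives and lost it when no UMI of the excluded genes was allowed (edgeR adjusted p = 0.238). After thinning, an Il33 UMI was found in 94.1% and 89.9% of cells with BPTES and in 85.4% and 82.6% with DMSO (98.6%, 97.1%, 95.7% and 93.5% unthinned), and in 3.5% to 5.7% of thinned endothelial cells. The next highest gated class was fibroblasts, at 39.6 CPM. In the members Il33 was at 453 and 167 CPM against 236 and 304 CPM, and the groups overlapped.

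Socs3 and Osmr were lower with BPTES. Osmr and Stat3 are named after their values were seen. Socs3, the feedback inhibitor that STAT3 induces, was at 182 and 195 CPM against 430 and 335 CPM, a log2 fold change of -1.01 ± 0.12 (SE, edgeR adjusted p = 0.0142). Osmr, a receptor subunit for oncostatin M, was at 117 and 113 CPM against 167 and 172 CPM (log2 -0.57 ± 0.08, edgeR adjusted p = 0.0128). Stat3 itself was at 360 and 385 CPM against 505 and 478 CPM and just missed the threshold (log2 -0.40 ± 0.08, edgeR adjusted p = 0.0601). Both Socs3 and Osmr lost their calls when no UMI of the excluded genes was allowed and without the 2 richest barcodes per library, and Osmr also without BPTES 2. In the members Socs3 was at 163.5 and 222 CPM against 265 and 264 CPM, lower in both BPTES libraries (log2 -0.44 ± 0.23, edgeR adjusted p = 0.888).

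The 250 bases before the RefSeq start of Socs3 and of the 2 starts of Il33 are shown because the results turn on these genes, which were called in opposite directions. They were read from RefSeq on GRCm38.p6, the assembly behind mm10, 5′ to 3′ on each gene's strand. The search was for TTCNNNGAA, the sequence that STAT dimers are known to bind, which reads the same on both strands and is in capitals where found. The Socs3 window is chr11:117969367-117969616 on the minus strand and overlaps an exon of a noncoding Socs3 transcript in the annotation. The Il33 windows are chr19:29924863-29925112 and chr19:29945540-29945789 on the plus strand and overlap no annotated exon.
Socs3: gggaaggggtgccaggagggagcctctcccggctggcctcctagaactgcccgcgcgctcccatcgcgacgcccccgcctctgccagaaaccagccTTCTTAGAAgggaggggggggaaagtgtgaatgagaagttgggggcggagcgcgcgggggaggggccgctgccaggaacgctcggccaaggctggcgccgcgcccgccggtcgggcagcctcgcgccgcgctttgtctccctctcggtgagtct
Il33 first start: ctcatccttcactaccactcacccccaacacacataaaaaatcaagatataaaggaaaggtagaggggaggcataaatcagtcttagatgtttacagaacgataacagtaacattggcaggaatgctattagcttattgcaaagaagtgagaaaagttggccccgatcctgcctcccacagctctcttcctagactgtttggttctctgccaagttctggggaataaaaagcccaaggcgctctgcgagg
Il33 other start: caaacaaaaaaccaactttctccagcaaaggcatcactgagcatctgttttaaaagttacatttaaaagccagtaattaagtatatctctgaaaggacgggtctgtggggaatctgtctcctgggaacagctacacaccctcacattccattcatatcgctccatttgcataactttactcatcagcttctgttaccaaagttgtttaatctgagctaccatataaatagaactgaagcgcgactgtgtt
The Socs3 window holds 1 match, which begins 154 bases before the start, and the Il33 windows hold none. The Socs3 window is 71.6% G or C with 26 CpG, and those of Il33 are 45.2% and 39.6% with 4 each. Among 9935 tested genes with a promoter entry 7.23% hold a match in the window of any of their starts, as do 6 of the 39 genes called lower that have an entry (15.4%) and 1 of the 12 called higher (8.33%). A match is a description of the letters and not evidence of binding.

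Further called genes were lower, of which Ripk1, Batf, Prdm1, Runx1 and Plscr1 are named after their values were seen. Ripk1, a kinase that relays death-receptor signals, was at 59.6 and 65.5 CPM against 135 and 107 CPM (log2 -0.94 ± 0.11, edgeR adjusted p = 0.0131). It kept its call under 15 of 16 alternatives, and in the members it was at 87.3 and 96.1 CPM against 194 and 151 CPM. Junb, an AP-1 subunit, was at 477 and 438 CPM against 632 and 614 CPM (log2 -0.45 ± 0.08, edgeR adjusted p = 0.0431), and lost its call under 6 of 16 alternatives, among them without BPTES 1, BPTES 2 or DMSO 1. Batf fell by 0.85 on the log2 scale, Prdm1, the repressor BLIMP1, by 0.73, Runx1 by 0.45 and Plscr1, an interferon-induced scramblase, by 0.72. Nr4a3, a nuclear receptor of the immediate-early kind, was at 17.1 and 14.3 CPM against 41.6 and 28.9 CPM (edgeR adjusted p = 0.0400), but its log2 difference was 0.37 once Scrublet's doublets were left out. Map3k8, a kinase upstream of ERK, was at 5.96 and 7.66 CPM against 15.6 and 13.5 CPM.

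The immediate early list as a whole had 21 tested genes, 14 with a negative and 7 with a positive sign. Its median log2 difference was -0.11, and Junb was its only call, while 0.554% of all tested genes were called. An unadjusted edgeR p under 0.05 was reached by 5 on the lower and 0 on the higher side, against 6.6% and 5.43% of all tested genes. Over all tested genes the median was 0.00. Zfp36, which speeds decay of cytokine mRNAs, was at 404 and 392 CPM against 530 and 513 CPM and just missed the threshold (edgeR adjusted p = 0.0585). Fosb and Nr4a1 went the other way without passing the test, at log2 0.40 and 0.31. Of 25 tested interferon-response genes 20 had a negative sign with a median of -0.28, and none was called. Stat2 and Irf1 differed by -0.32 and -0.11 on the log2 scale.

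Secreted immune and defence genes mostly had a positive sign. Of 27 tested genes 23 had a positive sign, with a median log2 difference of 0.34, 6 had an unadjusted p under 0.05 on the higher and 0 on the lower side, and only Il33 was called. Over all tested genes those sides held 5.43% and 6.6%, and 0.554% were called. Lcn2, the siderophore-binding lipocalin, was at 1651 and 1224 CPM against 642 and 943 CPM (log2 0.85 ± 0.27, edgeR adjusted p = 0.393). Hp, haptoglobin, was at 765 and 710 CPM against 479 and 642 CPM, and Nfkbia, the inhibitor of NF-κB, at 188 and 192 CPM against 131 and 152 CPM (edgeR adjusted p = 0.0660). Cxcl5, a neutrophil chemokine, was at 29.4 and 8.64 CPM against 0.743 and 0.863 CPM (log2 4.51 ± 1.41, edgeR adjusted p = 0.450). MHC class II genes had 10 tested, a median of 0.08 and no call, and Cd74 at 3068 and 2758 CPM against 2515 and 2860 CPM overlapped between groups.

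**Figure D4:**
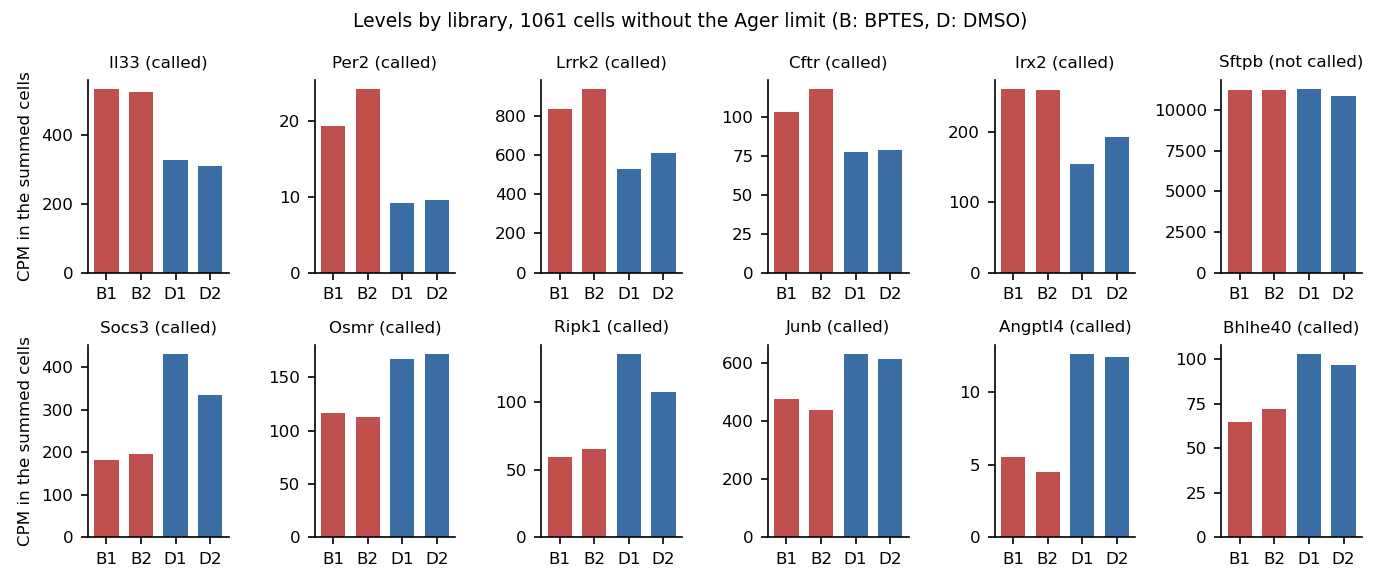
Bars give the CPM of 12 genes in the wider set by library, with BPTES in red and DMSO in blue and each axis starting at 0. Il33, Per2, Lrrk2, Cftr and Irx2 are higher in both BPTES libraries, Socs3, Osmr, Ripk1, Junb, Angptl4 and Bhlhe40 are lower in both, and Sftpb is level at 10832 to 11265 CPM.

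Clock genes were called in opposite directions, 1 higher and 1 lower of 22 tested, against 0.108% and 0.446% of all tested genes. Per2, a repressor of the circadian loop, was at 19.4 and 24.2 CPM against 9.17 and 9.60 CPM (log2 1.21 ± 0.17, edgeR adjusted p = 0.0131). After thinning, a Per2 UMI was found in 12.7% and 19.1% of cells with BPTES and in 10.1% and 9.38% with DMSO. In thinned endothelial cells these shares were 4.7% and 5.4% against 1.8% and 2.3%. Bhlhe40, another repressor of the loop, was at 64.9 and 72.0 CPM against 103 and 97.0 CPM (log2 -0.54 ± 0.09, edgeR adjusted p = 0.0297). Both lost their calls without BPTES 2, without the 2 richest barcodes per library and with no UMI of the excluded genes allowed, and Bhlhe40 also without BPTES 1. No other of the 22 clock genes tested was called. Per1 was at 32.4 and 38.1 CPM against 23 and 34.1 CPM and Arntl at 45.4 and 38.1 CPM against 44.1 and 53.7 CPM (edgeR adjusted p = 0.624 and 0.451). The hours at which lungs were taken are not given in the sources used here.

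Lipid genes gave 3 calls, while 0.554% of all tested genes were called. They were 1 higher and 1 lower of 32 genes of fatty acid use and PPAR targets. The third was lower, of 42 genes of fatty acid and cholesterol synthesis. Angptl4, a PPAR target that inhibits lipoprotein lipase, was at 5.52 and 4.53 CPM against 12.6 and 12.4 CPM (log2 -1.31 ± 0.20, edgeR adjusted p = 0.0241), and its level in gated fibroblasts was 142 CPM. Ppargc1a, the coactivator PGC-1α of mitochondrial biogenesis, was at 36.1 and 34.7 CPM against 21.8 and 17.3 CPM (log2 0.90 ± 0.13, edgeR adjusted p = 0.0169) and lost its call under 6 of 16 alternatives. Insig1, which holds back sterol synthesis, was at 95.9 and 96.5 CPM against 141 and 136 CPM (log2 -0.53 ± 0.08, edgeR adjusted p = 0.0185). Without BPTES 2, Insig1 and Angptl4 lost their calls, and without DMSO 2 so did Ppargc1a. Of 32 tested genes of fatty acid use and PPAR targets 25 had a negative sign with a median of -0.13. Of 42 genes of fatty acid and cholesterol synthesis 25 were negative with a median of -0.02. Fasn, fatty acid synthase, was at 601 and 558 CPM against 488 and 502 CPM (edgeR adjusted p = 0.286).

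The surfactant and lamellar body list had 30 tested genes, a median log2 difference of 0.03 and 1 call, while 0.554% of all tested genes were called. That call was Lrrk2, a kinase found on lamellar bodies and lysosomes, at 833 and 936 CPM against 529 and 609 CPM (log2 0.63 ± 0.10, edgeR adjusted p = 0.0241). It lost the call without BPTES 2, without the 2 richest barcodes per library and with no UMI of the excluded genes allowed. The log2 differences of Sftpa1, Sftpb, Sftpd, Abca3 and Napsa were 0.03, 0.02, 0.17, 0.02 and -0.03, each with an SE of 0.08 to 0.10. Cftr, the chloride channel, was called at 104 and 118 CPM against 77.6 and 79.0 CPM (log2 0.50 ± 0.09, edgeR adjusted p = 0.0372). Irx2, a homeobox factor, was called at 260 and 259 CPM against 155 and 193 CPM, and Tmem163, a zinc transporter, at 430 and 493 CPM against 335 and 323 CPM. Mbl1, the collectin mannose-binding lectin A, was called lower at 10.9 and 9 CPM against 24.5 and 18.0 CPM. Cftr, Irx2, Tmem163 and Mbl1 also lost their calls without BPTES 2, without the 2 richest barcodes per library and with no UMI of the excluded genes allowed. Irx2 lost it without BPTES 1 as well, Cftr and Mbl1 without DMSO 1, and Cftr and Tmem163 without DMSO 2.

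Factors that maintain the type 2 state mostly had a negative sign, 13 of 18 tested, with a median of -0.11 and no call. An unadjusted edgeR p under 0.05 was reached by 5 on the lower and 1 on the higher side. Over all tested genes those sides held 6.6% and 5.43%. Cebpa, needed for surfactant maturation, was at 117 and 101 CPM against 159 and 143 CPM (log2 -0.46 ± 0.09, edgeR adjusted p = 0.0585), and Nkx2-1 was at 266 and 228 CPM against 245 and 251 CPM. Of 26 tested genes of the transitional alveolar state 18 had a positive sign with a median of 0.18 and no call. Krt8 was at 122 and 173 CPM against 92.4 and 109 CPM (edgeR adjusted p = 0.447), while Cdkn1a was at 56.6 and 49.1 CPM against 64.7 and 72.2 CPM (edgeR adjusted p = 0.137). Cldn4, a marker of the same state, was at 0.0627 to 0.496 CPM. Mki67, the proliferation antigen, was at 0.815 and 1.16 CPM against 1.98 and 0.971 CPM. Cdkn2a, which encodes p16, gave a UMI in 1 library only, at 0.0627 CPM.

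Glutamine genes, the pathway of the inhibited enzyme, gave no call in the wider set, but 8 of 34 tested had an unadjusted p under 0.05 on the higher and 1 on the lower side, against 5.43% and 6.6% of all tested genes. Glul, which makes glutamine, was at 163 and 148 CPM against 128 and 136 CPM (edgeR adjusted p = 0.267), and Slc1a5, a glutamine importer, at 85.9 and 78.6 CPM against 98.6 and 87.1 CPM. Enzymes that spend glutamine's amide nitrogen differed in sign without passing the test: Gfpt1 of the hexosamine route and Gmps and Ppat of purine synthesis were at log2 0.34, 0.33 and 0.36. Ctps of pyrimidine synthesis went the other way at -0.31. Asns, an ATF4 target, was at 4.89 and 5.63 CPM against 12.1 and 5.93 CPM, and the 31 tested ATF4 genes had a median of -0.02 and no call.

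Of 31 tested glutathione and NRF2 genes 24 had a positive sign, with a median of 0.15 and no call. Gclc, the rate-limiting subunit of glutathione synthesis, was at 1022 and 1208 CPM against 623 and 827 CPM (log2 0.62 ± 0.15, edgeR adjusted p = 0.168), and in the members at 1159 and 923 CPM against 571 and 735 CPM. Slc7a11, the cystine-glutamate exchanger, was low in type 2 cells at 3.51 and 4.65 CPM against 0.991 and 1.29 CPM (log2 1.77 ± 0.40, edgeR adjusted p = 0.0830), and it was highest in gated neutrophils at 1395 CPM. Heat shock and chaperone genes had 20 of 25 positive signs and a median of 0.28, with 9 at an unadjusted p under 0.05 on the higher and 1 on the lower side, against 5.43% and 6.6% of all tested genes, and no call. Hspa5, the endoplasmic reticulum chaperone BiP, was at 545 and 684 CPM against 464 and 497 CPM, and Dnaja1 at 270 and 382 CPM against 210 and 201 CPM. BPTES 2 was the highest library for Hspa5, Dnaja1, Hspa8 and Hsp90ab1. TCA-cycle genes had 22 of 27 positive signs with a median of 0.06, and Fh1, fumarase, was at 52.4 and 58.4 CPM against 48.1 and 41.0 CPM.

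Among the members, no list held a call, fewer genes passed the filter on low counts, and several lists differed from the wider set in sign. Secreted immune genes had 8 positive signs of 17 (median -0.02), TCA-cycle genes 13 of 26 (median -0.04), MHC class II genes 1 of 8 (median -0.12) and MHC class I genes 3 of 14 (median -0.35). Immediate early genes had 9 negative signs of 19 (median 0.05), clock genes 7 of 15 (median 0.08) and senescence genes 8 of 18 (median 0.21). The sign of the median was the same in both sets for the transitional state (17 positive of 20, median 0.51), chaperones (17 of 24, 0.20), glutathione genes (18 of 26, 0.11) and glutamine genes (14 of 21, 0.23). It was also the same for type 2 transcription factors (13 negative of 18, median -0.23), interferon genes (5 of 7, -0.19), fatty acid synthesis (24 of 33, -0.12) and fatty acid use (17 of 26, -0.15). Surfactant genes had a median of 0.01 and ATF4 genes of -0.06. The median of all genes tested in the members was -0.00.

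**Figure D5:**
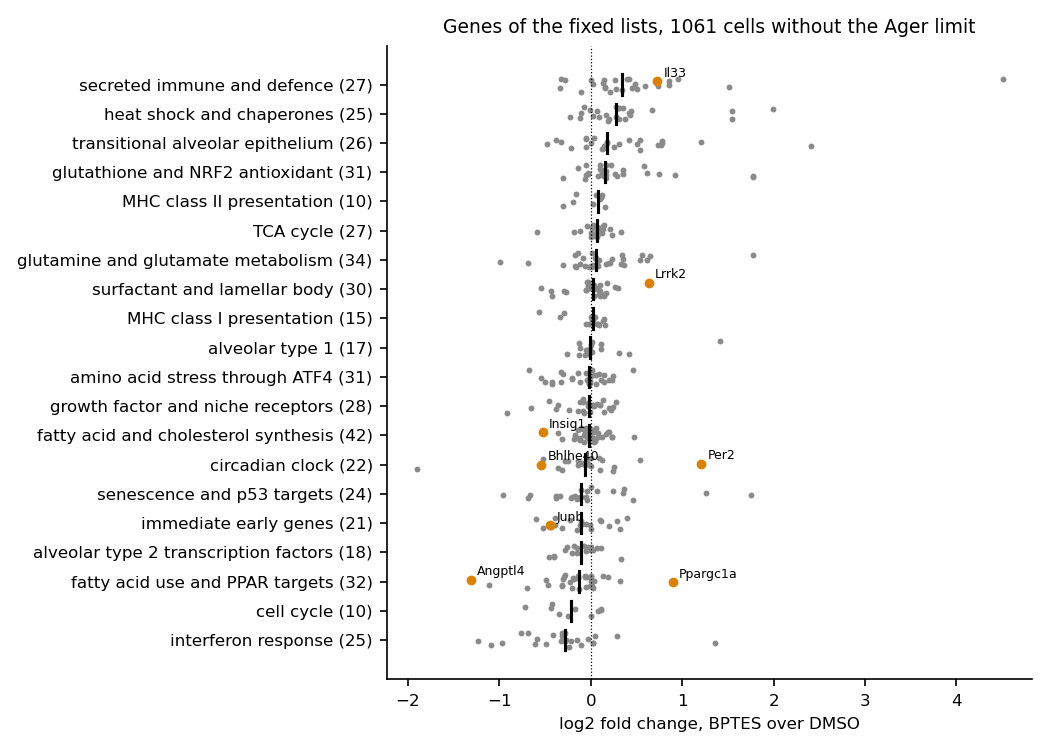
Each point is 1 tested gene of a list in the wider set, placed by its log2 fold change of BPTES over DMSO on the x axis, with lists ordered by median (black bar) and the number tested in brackets. The called genes are orange and named, the medians run from -0.28 for interferon response to 0.34 for secreted immune genes, and the dotted line is the median of all tested genes.

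Several of the genes called lower are transcripts of other cells at a much higher level. Unc5c, Tmtc1 and Ablim3 stood at 9.70, 8.04 and 13.8 CPM over the pooled wider set, against 612, 283 and 487 CPM in gated fibroblasts, or 1.58%, 2.84% and 2.83% of that level. Fbxl7 and Map3k8 were highest in gated endothelial cells at 331 and 122 CPM, and the wider set held 3.68% and 7.31% of that. The log2 difference of Fbxl7 was 0.19 once Scrublet's doublets were left out, against -1.05 with them. The fibroblast and endothelial marker sums of the wider set overlapped between groups. Neutrophil markers summed to 13.9 and 18.7 CPM with BPTES against 27.6 and 28.3 CPM with DMSO, lower for all 4 markers. B cell markers summed to 17.8 and 17.9 CPM against 22.4 and 29.2 CPM. The rule itself capped the B cell markers Cd79a, Cd79b and Ms4a1 and the endothelial marker Cdh5. The B cell and endothelial sums are therefore cut off by the rule and do not compare the groups freely. The part of RNA of other cells in these calls was not tested.

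Whether the change in type 2 cells differed from that in all other barcodes was tested as an interaction of class and treatment. The other barcodes were summed over all cell types, whose mix also differed between groups. B cells were 4.33% and 3.68% of kept barcodes with BPTES against 8.50% and 7.74% with DMSO. Monocytes and macrophages were 10.8% and 12.1% against 8.09% and 9.66%, while gated endothelial, fibroblast, T cell and neutrophil shares overlapped. The part of this mix in the interaction calls was not tested. In this test genes could pass the filter on low counts through the other barcodes alone. By themselves, 12992 genes passed it in the wider set and 7203 in the members. Over the wider set 79 of 20601 genes were called, or 0.383%, with 11 higher (0.0534%) and 68 lower (0.33%). For the members 283 of 20104 were called, or 1.41%, with 187 higher (0.93%) and 96 lower (0.478%), but the other barcodes of that fit hold the 952 that the Ager limit removed. The other barcodes of the wider-set fit also hold some rich in Sftpc. Of kept barcodes 469, 477, 134 and 295 in the 2 BPTES and then the 2 DMSO libraries held 50 or more Sftpc UMIs. The wider set took 364, 373, 93 and 231 of them, and the rest, which failed another limit, stayed among the other barcodes. Among the other barcodes by themselves no gene was called by edgeR, with 3294 at an unadjusted p under 0.05. Socs3 differed from the other barcodes by -0.82 ± 0.11 on the log2 scale (edgeR adjusted p = 0.0129): outside the wider set it was at 339 and 343 CPM against 386 and 361 CPM. Lrrk2 differed by 0.92 ± 0.12 (edgeR adjusted p = 0.0138), Angptl4 by -1.15 ± 0.18 (edgeR adjusted p = 0.0275) and Bhlhe40 by -0.58 ± 0.10 (edgeR adjusted p = 0.0478). The differences of Il33 and Per2, 0.88 ± 0.29 and 0.63 ± 0.20, were not called (edgeR adjusted p = 0.594 and 0.402). Sftpb, Sftpa1 and Sftpd were called with differences of -1.05, -1.01 and -0.96, beside a shift in the other barcodes: there Sftpb was at 180 and 170 CPM with BPTES against 75.7 and 83.8 CPM with DMSO, while in type 2 cells it was level. In gated endothelial cells, which hold under 50 Sftpc UMIs each, Sftpb was at 16.3, 12.8, 4.24 and 8.60 CPM.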

How the data were processed

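Droplet 3' single-cell RNA libraries of 4 samples (2 BPTES, 2 DMSO) were analysed. The deposited matrices hold UMI counts per gene and barcode, which the authors made with Cell Ranger 8.0.1 on mm10, per the submitters' processing notes. Here barcodes were kept with at least 500 genes, 1000 UMIs and at most 10% mitochondrial UMIs. Barcodes were scored with Scrublet (scanpy 1.11.5), and those of highest score were taken as doublets. Their number was preset at 0.4% of kept barcodes for each 1000 kept, and they were removed only in an alternative. Counts were summed per library over the chosen cells, and genes were tested with edgeR 4.0.16 (TMM, filterByExpr, robust quasi-likelihood test, Benjamini-Hochberg adjustment, threshold 0.05) in R 4.3.3, with DESeq2 1.42.0 as an alternative. The difference from other barcodes was fitted with library, class and their treatment interaction. Other classes were gated by marker UMIs. Shares were compared with exact permutation tests in scipy 1.17.1, and intervals are Clopper-Pearson.

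Named genes were up to 12 called genes per direction by fold change (mean of at least 10 CPM, no overlap), called genes of the lists, and a set of fixed genes, not all of which are reported here. Where under 10 were called in a direction, those of smallest p were added, up to 10, under the same limits on mean and overlap. Other list genes, and Osmr, Stat3, Ripk1, Prdm1, Plscr1, Runx1, Batf, Gclc, Cebpa, Nfkbia, Hspa5 and Slc7a11, were chosen after their values were seen. Members and lists were chosen with earlier results of these data known, and the wider set was added after the Ager limit was seen to remove most barcodes. On simulated counts the test recovered 8.91% of genes changed by 1 on the log2 scale and 91.5% of those changed by 2 for the members (6763 genes run). For the wider set it recovered 80.2% and 97.8% (12808 genes run). False calls among unchanged genes numbered 2 for the members and 8 for the wider set. The simulation gave every gene the same dispersion (spread beyond counting error), 0.05 for the members and 0.01 for the wider set. It held no spread between genes in dispersion and no counts carried by a few barcodes, so these figures hold for that simpler setting only.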

Additional observations from a re-analysis of the deposited data

Results flagged for a closer look

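The following genes changed differently in the wider set of alveolar type 2 cells than in all other barcodes, by edgeR's interaction test. Each value is the log2 change with BPTES in type 2 cells minus that in the other barcodes, and no explanation was tested. The other barcodes were summed over all cell types, whose mix also differed between groups. Among the named genes of the surfactant and lamellar body list the differences were -1.05 for Sftpb, -1.01 for Sftpa1, -0.96 for Sftpd and 0.92 for Lrrk2. They were -0.95 for Cxcl15, -0.94 for Nkx2-1, -1.23 for Cebpa and -0.58 for Irx2, which was called higher in type 2 cells. In the other barcodes Sftpa1 was at 373 and 333 CPM with BPTES against 153 and 175 CPM with DMSO, a log2 difference of 1.15, and the share of the wider set in the libraries was also higher with BPTES, while that of the members overlapped between groups. The other barcodes include some with 50 or more Sftpc UMIs that failed another limit of the rule. Other positive differences were 1.16 for Tmem163 and 2.05 for Slc7a11, whose level in type 2 cells was at most 4.65 CPM. Among genes called lower in type 2 cells the differences were -0.82 for Socs3, -0.58 for Bhlhe40 and -1.15 for Angptl4. They were -1.0 for 1200007C13Rik, -0.95 for Nr4a3, -0.97 for Tmtc1, -0.95 for Map3k8 and -1.03 for Fbxl7.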

How the results depend on the processing

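The difference in the members' share of kept barcodes, 0.0249 percentage points, ranged from -0.0268 to 0.0767 when each library was left out, and was negative without DMSO 1. Without the Ager limit it was 1.38. Among Ptprc-free barcodes it was 0.0251, with a range from -0.0545 to 0.105, and 1.96 without the Ager limit. In the wider set the differences became 0.597 and 0.918 with no UMI of the excluded genes allowed. The mean shares of kept barcodes were then 0.870% with BPTES and 0.273% with DMSO. The ratios of BPTES to DMSO were 3.19 and, among Ptprc-free barcodes, 3.09, against 2.60 and 2.61 in the main setting.

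The members' 2 called genes became 16 in DESeq2, 8 with RLE factors and 221 with no filter on low counts. They became 4 at a minimum of 100 Sftpc UMIs and 4 without the 2 richest barcodes per library. Each of these last settings kept only 1 of the 2 genes. They became 0 without doublets, with no UMI of the excluded genes allowed or without barcodes holding other cells' markers, 72 without the Ager limit, and 15 to 126 with each library left out. The wider set's 72 became 676 with no filter, 2 with no UMI of the excluded genes allowed, 7 without the 2 richest barcodes, and 39 to 166 with each library left out. The 283 interaction calls of the members became 79 without the Ager limit and 139 to 313 with each library left out. The wider set's 79 became 131 with no filter and 137 to 362. The cause was not tested. A lone library left in a group is assumed to vary like the others. For the members, the setting with no UMI of the excluded genes also allowed no UMI of Ager. It left 1, 3, 1 and 3 members in BPTES 1, BPTES 2, DMSO 1 and DMSO 2. There 477 genes were tested, so its 0 calls come from too few cells to judge the 2 called genes.

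The libraries share only replicate numbers, and the labels do not say that these pair them. The correlation of same-numbered deviations was -0.0055 in the members and -0.0169 in the wider set, and 0.0685 and 0.0832 over genes above 50 CPM. With the replicate block 11 genes were called in the members and 237 in the wider set.

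Over single genes, 1209 of 1528 alternative values kept their direction and side of the threshold, 137 lost it and 112 gained it, and 70 changed sign. A gene called in neither fit counts as kept here. The wider set's 60 named genes include fixed genes that the main fit did not call, so these had no call to lose. With no UMI of the excluded genes allowed 30 of the 60 lost their call, and of all 72 called genes 1 kept it. Without the 2 richest barcodes per library 27 of the 60 lost their call, and 6 of the 72 kept it. Signs of the log2 difference that changed in the members were these. Without doublets the value was -1.04 for Gsn, 0.19 for Sftpb, 0.076 for Abca3, 0.013 for Napsa, 0.0023 for Lyz2, 0.072 for Scd1, 0.11 for Fasn and 0.10 for H2-Aa. Without barcodes holding other cells' markers the value was -0.37 for Gsn, 0.19 for Sftpb, 0.023 for Abca3, 0.0094 for Napsa, 0.0053 for Lyz2, 0.088 for Scd1, 0.10 for Fasn, 0.16 for H2-Aa and -0.058 for Thbs1. With no UMI of the excluded genes or of Ager only 1, 3, 1 and 3 members were left, too few to judge a sign. There the value was 0.20 for Bex4, 0.69 for Sftpb, -0.80 for Sftpd, 0.37 for Abca3, 0.59 for Napsa, 0.17 for Nkx2-1, -0.19 for Lcn2, 0.96 for Slc1a5, 0.22 for H2-Aa and -0.50 for Gclc. Without the 2 richest barcodes per library the value was 0.098 for Sftpb and -0.057 for Sftpd. At a mitochondrial limit of 5% the value was -0.10 for Sftpd, 0.056 for Scd1, -0.067 for Glul and 0.12 for Slc1a5. At a minimum of 100 Sftpc UMIs the value was -0.0029 for Sftpd. With each library left out it ran from -0.0067 to 0.017 for Sftpd, from -2.94 to 1.08 for Lyz1, from -0.70 to 0.73 for Il33, from -0.28 to 1.03 for Lcn2, from -0.45 to 0.13 for Scd1, from -0.33 to 0.13 for Fasn, from -0.13 to 0.66 for Glul, from -0.31 to 0.014 for H2-Aa, from -0.095 to 0.38 for Cd74 and from -0.037 to 2.24 for Thbs1. Signs of the log2 difference that changed in the wider set were these. Without doublets the value was 0.37 for Nr4a3, 0.19 for Fbxl7 and 0.0016 for Nkx2-1. With no UMI of the excluded genes the value was 0.0069 for Napsa, -0.013 for Lyz1, 0.094 for Nkx2-1 and -0.00091 for Scd1. With no filter on low counts the value was 0.0095 for Nkx2-1. In DESeq2 the value was 0.0034 for Nkx2-1. At a mitochondrial limit of 5% the value was 0.0030 for Nkx2-1. Without barcodes holding other cells' markers the value was 0.00032 for Nkx2-1. At a limit of 2000 Ager CPM the value was 0.00021 for Nkx2-1. With each library left out it ran from -0.027 to 0.094 for Sftpa1, from -0.0080 to 0.050 for Sftpb, from -0.0070 to 0.054 for Abca3, from -0.078 to 0.0086 for Napsa, from -0.020 to 0.34 for Cxcl15, from -0.12 to 0.10 for Nkx2-1, from -0.071 to 0.85 for Gdf15, from -1.0 to 0.027 for Mki67 and from -1.04 to 0.90 for Ccl5.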
